A study of Homo sapiens with 8 samples.

Results

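Peaks of 2 histone marks were examined at 10 genes for hematopoietic stem and progenitor transcription factors, GATA2, GATA1, TAL1, LYL1, LMO2, ERG, FLI1, MEIS1, MYB and HHEX, among 20090 protein-coding genes. The genes were taken by name, as known regulators of blood stem cells and of progenitors, with earlier results of these data known. The cells were HL-60, an established human promyelocytic leukemia line that differentiates towards granulocytes under all-trans retinoic acid (ATRA). The ATRA group received 1 µM ATRA in ethanol for 4 days and the control group received ethanol alone, with fresh medium and agent during the treatment. Each mark was profiled by chromatin immunoprecipitation and sequencing in 2 ATRA and 2 control libraries, 8 libraries in all, from a single cell line. The labels do not say whether the replicates came from separate cultures, so the spread between them may be technical.

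GATA2 and GATA1 are zinc finger factors that bind the same DNA letters, GATA2 in stem and progenitor cells and GATA1 in erythroid and megakaryocytic cells. TAL1 and LYL1 are related basic helix-loop-helix proteins that bind E-boxes, LMO2 is the bridge that holds them together with GATA factors in 1 complex, and ERG and FLI1 are ETS factors that occupy many of the same enhancers. H3K4me3 marks the start sites of active genes, and H3K27ac marks active start sites and enhancers. The comparison asked which of these genes had less H3K27ac in ATRA-treated cells, as GATA2 does.

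For each gene the length of sequence under peaks was summed over the gene body and 20 kb on each side, in each library. A gene was called lower when both ATRA libraries lay below both control libraries, and higher in the opposite case. With 2 libraries against 2, the smallest two-sided p of an exact permutation test is 0.33, so no p-value is given for any gene. Log2 ratios compare the mean lengths after adding 1000 bp to each, which pulls ratios of short lengths towards 0. The values are positions of peaks without read counts, the sequencing depth is unknown, and a longer peak is not a measure of stronger signal.

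The libraries themselves differed in extent. H3K27ac peaks numbered 15457 and 29616 in the control libraries and 28200 and 39332 in the ATRA libraries, and H3K4me3 peaks between 13241 and 16487. Over all genes with a peak, the median log2 ratio of ATRA to control was 0.49 for H3K27ac and 0.16 for H3K4me3, so the background leaned towards ATRA. H3K27ac was lower in ATRA at 3.86% and higher at 43.7% of 15477 genes with a peak in at least 1 library. When each library was divided by its total covered length, the median became -0.13 and the shares became 25.06% lower and 18.36% higher. H3K4me3 was lower at 3.39% and higher at 41.3% of 14609 genes, which became 25.39% and 15.99%, with a median of -0.04, after the same division. Both ATRA libraries of each mark covered more of the genome than both control libraries, so a gene called lower stays lower after the division and a gene called higher need not stay higher. Peaks at the TSS of marker genes were read as a check of the cell type. Of 7 promyelocyte markers, 4 to 6 carried H3K27ac at the TSS in each library, while granulocyte markers with such a peak numbered 4 and 5 of 10 in the control and 8 and 9 in the ATRA libraries. H3K27ac lay at the TSS of at most 1 of 4 monocyte, 1 of 5 erythroid and 1 of 5 megakaryocyte markers in any library. Lymphoid markers were not sparse, at 2 of 6 in each control and 3 of 6 in each ATRA library, so the check was less clear for them.

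On undivided lengths, GATA2 was the only member called lower for H3K27ac and the only member called lower for H3K4me3. It was also the only one that lost H3K27ac at its TSS. H3K27ac was higher at LYL1 and FLI1, although both ratios turned negative (-0.49 and -0.08) when libraries were divided by their covered length. FLI1 was then called lower, as were GATA2, GATA1 and MYB, against 25.06% of all genes. The libraries overlapped at 6 other members, and MEIS1 had no peak. Of the 9 members with H3K27ac, 1 was lower and 2 were higher, against the 3.86% and 43.7% of all genes. Without control replicate 1, or without ATRA replicate 2, 4 members were lower in H3K27ac. For H3K4me3, 1 of 9 was lower and 0 were higher, against 3.39% and 41.3%, and 7 were lower without control replicate 2 and 4 without ATRA replicate 1. With a library left out, these counts can only stay or rise, and the shares over all genes were not computed. The median log2 ratio over the 9 members with a peak was 0.35 for H3K27ac and -0.03 for H3K4me3, against 0.49 and 0.16 over all genes. In bulk cells, a change in the number of cells carrying a mark and a change in the mark per cell cannot be told apart.

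**Figure D1:**
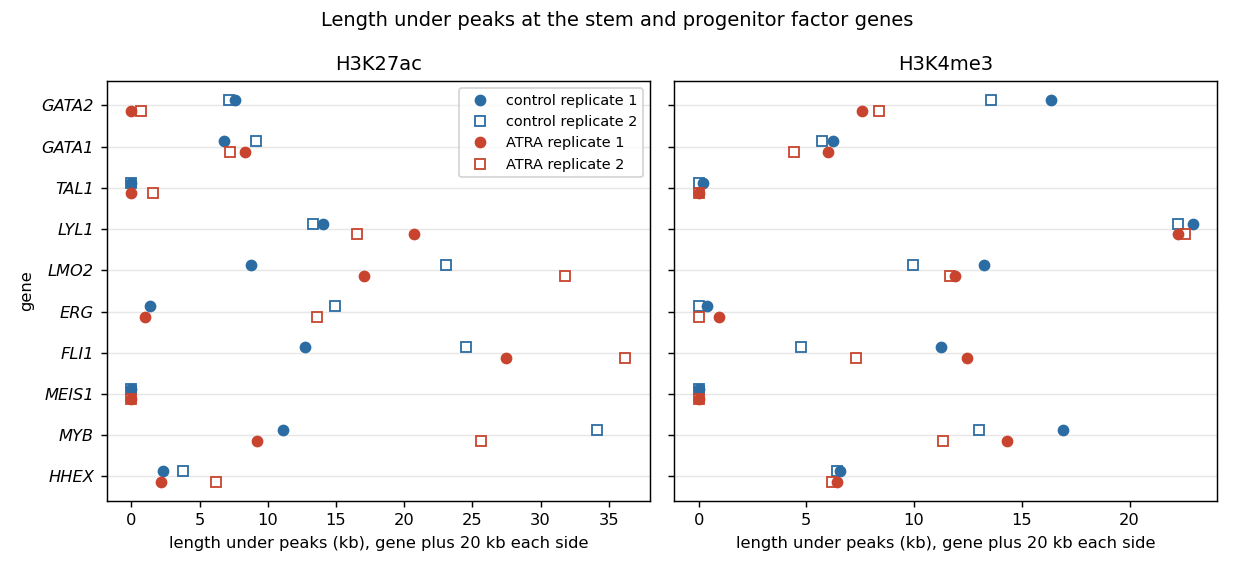
Length under H3K27ac (left) and H3K4me3 (right) peaks in kb (x axis) over each gene and 20 kb on each side (y axis), with 1 point per library, circles for replicate 1 and squares for replicate 2. Both ATRA points of GATA2 lie left of both control points for both marks, at 0 and 690 bp of H3K27ac against 7577 and 7158 bp. LYL1 and FLI1 lie to the right in ATRA for H3K27ac, and their direction turns after division by the covered length of each library.

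GATA2 lies on chromosome 3 (hg19, 128198270 to 128212044, minus strand). The intron after exon 4 of 6 holds an E-box next to a GATA motif, the known hematopoietic enhancer at which TAL1, LMO2 and GATA2 itself assemble. The composite CATCTGNNNNNNNNAGATAA was searched on both strands of all 10 gene windows and occurred once, 9.9 kb downstream of the GATA2 TSS. It occurred in 2 of 35116 RefSeq promoters, or 0.005695%. Those are 300 bases each and the gene windows are far longer, so the searches cannot be set against each other. The letters and spacing searched are those of the known site, so its presence at GATA2 was given beforehand. The site is printed because it lay inside the H3K4me3 domain in control cells and outside it in ATRA. The sequence is that of chr3:128202054-128202273 in hg19, on the minus strand, and the capitals mark the E-box and the GATA motif.
GATA2 intron site: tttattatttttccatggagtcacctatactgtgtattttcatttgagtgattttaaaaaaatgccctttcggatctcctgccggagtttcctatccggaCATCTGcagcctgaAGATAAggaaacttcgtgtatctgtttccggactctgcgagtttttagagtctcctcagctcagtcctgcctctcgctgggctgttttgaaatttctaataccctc
The 20 bases of this motif lay under H3K4me3 peaks in both control libraries (20 of 20 bases in each) and in neither ATRA library (0 of 20 in each). No library of either condition had an H3K27ac peak over them.

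GATA2 has several start sites, and RefSeq lists promoters for 2 of them, 4671 bp apart. They are shown because H3K27ac was lost at the canonical start of the gene. RefSeq promoters (build GRCh38.p14, 250 bases before to 50 bases after the start) were found for 8 of the 10 genes, in 13 windows, and LMO2 and FLI1 had no entry. Capitals mark E-boxes (CAGCTG or CATCTG) and GATA motifs (AGATAA and AGATAG, and likewise TGATAA and TGATAG) on either strand. The windows lie on the minus strand at chr3:128493152-128493451 for the upstream start and chr3:128488481-128488780 for the downstream start.
GATA2 upstream promoter: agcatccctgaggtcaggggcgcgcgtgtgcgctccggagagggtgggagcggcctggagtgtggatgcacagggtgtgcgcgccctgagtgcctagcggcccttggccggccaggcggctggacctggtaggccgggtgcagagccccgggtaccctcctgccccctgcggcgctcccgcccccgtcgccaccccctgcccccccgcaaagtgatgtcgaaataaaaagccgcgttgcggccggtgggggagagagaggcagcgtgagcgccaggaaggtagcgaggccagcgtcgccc
GATA2 downstream promoter: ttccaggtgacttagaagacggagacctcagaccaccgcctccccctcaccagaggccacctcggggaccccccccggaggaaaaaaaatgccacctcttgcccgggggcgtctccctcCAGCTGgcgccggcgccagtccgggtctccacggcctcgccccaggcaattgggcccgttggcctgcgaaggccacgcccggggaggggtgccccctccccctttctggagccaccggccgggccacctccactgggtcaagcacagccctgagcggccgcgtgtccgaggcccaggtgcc
The upstream promoter held 29 CpG and neither motif, and the downstream promoter held 22 CpG and 1 E-box. Among the 13 member windows, 4 held a GATA motif and 2 an E-box, and 2 of the 4 were ERG windows that overlap and hold the same GATA motif, while 24.97% and 29.77% of all 35116 RefSeq promoters held them.

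H3K27ac over GATA2 covered 7577 and 7158 bp in the control libraries, and 0 and 690 bp in the ATRA libraries. The control libraries lay close together and the ATRA libraries were far below them, with means of 7367.5 ± 296.3 bp and 345.0 ± 487.9 bp (SD, n = 2). The log2 ratio was -2.64, and only 11 of 15477 genes, GATA2 included, had a ratio this low or lower (0.0711%). After division by the covered length of each library the ratio was -3.35. Neither this division nor leaving out 1 library could undo the call, since a gene already lower stays lower under both. The call depends on peaks with a low -log10 q. The long peak of control replicate 2 had a deposited -log10 q of 1.74 and that of control replicate 1 had 5.22. Among peaks with a -log10 q of at least 5, the lengths were 7577, 0, 0 and 690 bp and the groups overlapped.

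The lost H3K27ac was the start of the gene. In control replicate 1 it ran from 2.7 kb upstream to 4.9 kb downstream of the canonical TSS, and in control replicate 2 from 1.9 kb upstream to the same point, with a further 300 bp peak beyond it. ATRA replicate 1 had no peak, and the one peak of ATRA replicate 2 spanned 690 bp between 2.9 and 3.6 kb inside the gene. The 2001 bp centered on the TSS were fully covered in both control libraries and uncovered in both ATRA libraries. Such a loss at the TSS, a peak within 1 kb in both control and in no ATRA library, was called at 0.529% of 10592 genes with a TSS peak, and a gain at 4.78%. Among the members, 1 of 7 with a TSS peak lost it and 0 gained one. A window of 5 kb on each side of the TSS reached the short peak of ATRA replicate 2, and GATA2 was then no longer called lost.

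Of 5 groups of annotated GATA2 start sites, the canonical group and the group 1.3 kb inside the gene lost H3K27ac. The group at 2.6 kb was covered over 2001 bp in both control libraries, 0 bp in ATRA replicate 1 and 622 bp in ATRA replicate 2. At the group 4.2 kb inside the gene, 1750 and 2073 bp were covered in control cells and 0 and 455 bp in ATRA. The group at 11.3 kb had no H3K27ac in any library. H3K27ac was thus lower across 4 of the 5 groups, with a short remnant in 1 of the ATRA libraries.

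H3K4me3 at GATA2 shrank rather than disappeared. It covered 16334 and 13578 bp in control cells and 7596 and 8347 bp in ATRA-treated cells, with a log2 ratio of -0.83, and 58 of 14609 genes had a ratio this low or lower (0.397%). Means were 14956.0 ± 1948.8 bp and 7971.5 ± 531.0 bp (SD, n = 2), and the groups did not overlap. The control domain ran from 5.2 or 2.6 kb upstream to 11.2 or 10.5 kb inside the gene, whereas the main ATRA peak ran from 0.3 to 7.9 kb in both libraries. Both edges of the main ATRA peak thus lay inside the control domain, the upstream edge beyond the canonical TSS and the downstream edge before the intron site printed above. ATRA replicate 2 had further peaks of 200 and 587 bp upstream. Around the TSS, coverage went from 2001 bp in both control libraries to 725 and 653 bp in ATRA. The group of start sites at 4.2 kb stayed fully covered (3119 bp) in all 4 libraries, while the last group, at 11.3 kb, had 922 and 272 bp in control cells and 0 bp in ATRA. These H3K4me3 values were unchanged with a -log10 q of at least 5. Counted as number of peaks rather than length, the ratio was 0.26, with 1 and 2 peaks in control cells and 1 and 3 in ATRA.

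**Figure D2:**
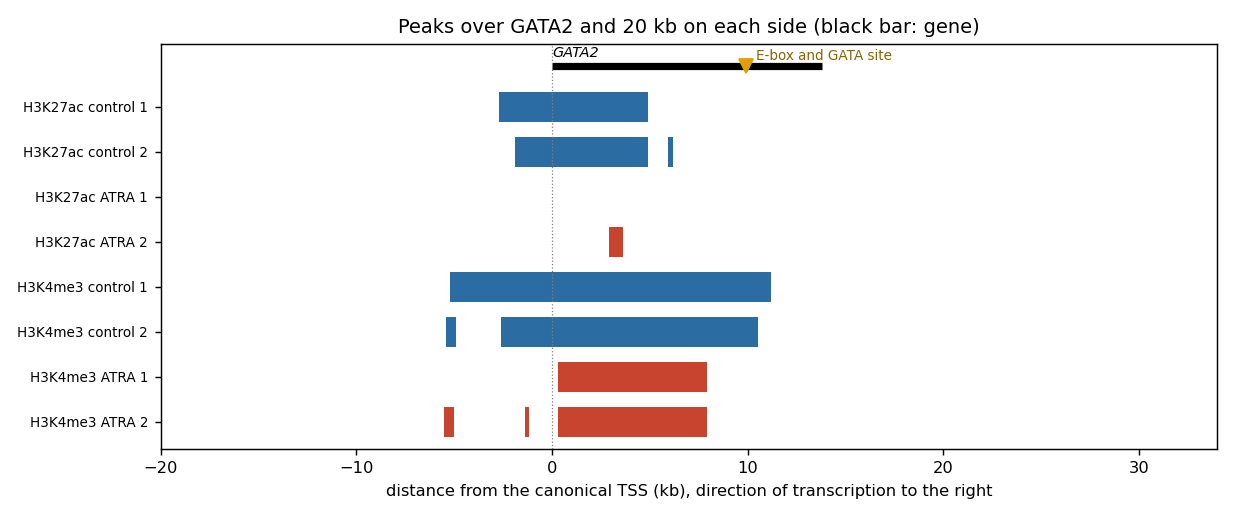
Peaks of each library (rows, blue for control and red for ATRA) against distance from the canonical GATA2 TSS in kb (x axis, transcription to the right), with the gene as a black bar and the E-box and GATA site as a triangle. H3K27ac spans the TSS in the control rows only, and H3K4me3 in ATRA runs from 0.3 to 7.9 kb, inside the control domain.

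The lower H3K27ac reached beyond the gene. Between 20 and 100 kb upstream, where no other protein-coding gene starts, H3K27ac covered 12700 and 17437 bp in control cells and 2071 and 3954 bp in ATRA, a log2 ratio of -2.00. In the same distance downstream the lengths were 13872, 3562, 4319 and 640 bp, and the groups overlapped. H3K4me3 covered 2034 and 1590 bp upstream in control cells and 0 bp in both ATRA libraries. Among the 9 other members, none was lower in H3K27ac over either of these stretches. Shares over all genes were not computed for them, so nothing is read from that count. With 100 kb on each side of the gene, 2.832% of all genes were lower.

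No other member was called lower in both marks on undivided lengths, while MYB and GATA1 were after division by covered length. The share of all genes lower in both marks after that division was not computed. For the single marks it was 25.06% in H3K27ac and 25.39% in H3K4me3. On undivided lengths both marks were lower at 86 of 13906 genes with peaks of both, or 0.618%, and GATA2 was the single member among them. Adding the loss of H3K27ac at the TSS left 6 genes, or 0.0431%. By their H3K27ac ratio, GATA2 was 2 of these 6, after IGLL1 (-3.50), a component of the pre-B cell receptor. Further down, SLC23A1, TREX2 and HAUS7 had ratios between -0.40 and -0.39, and TREX2 and HAUS7 are neighbors. These genes other than GATA2 were named after their values were seen. By distance over the 8 libraries on the log2 scale, the 5 genes nearest to GATA2 were NACC2 (1.06), TEDC2 (1.57), HES7 (1.63), ALOXE3 (1.72) and NTN3 (1.82). TEDC2 and NTN3, and likewise HES7 and ALOXE3, are neighbors with shared peaks. Of the members, HHEX was nearest (distance 3.49, rank 1879 of 20088), followed by GATA1 (4.39, rank 6460), and the remaining distances ran from 5.71 for MYB to 8.44 for MEIS1.

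**Figure D3:**
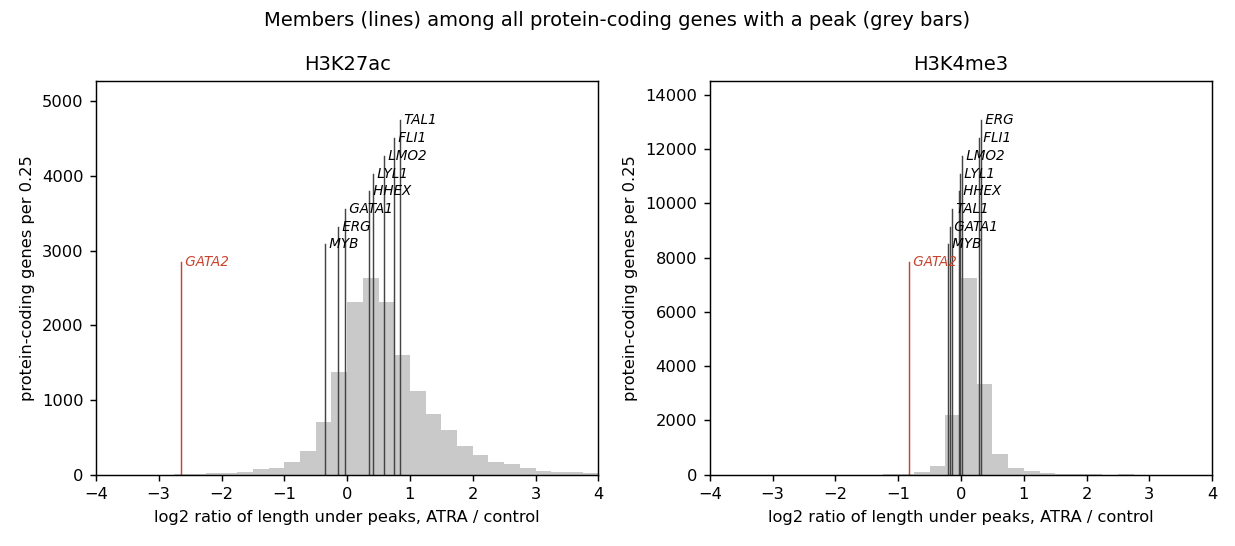
Log2 ratio of the mean length under peaks, ATRA over control (x axis), for H3K27ac (left) and H3K4me3 (right), with all genes with a peak as grey bars (y axis, number of genes per 0.25) and the members as lines whose heights only separate the names. GATA2 lies at -2.64 and -0.83, left of every other member, while the others sit between -0.36 and 0.85 for H3K27ac and between -0.21 and 0.32 for H3K4me3.

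GATA1, the erythroid relative of GATA2, was not called lower over its window (hg19 chromosome X, 48644948 to 48652718, plus strand). H3K27ac covered 6778 and 9170 bp in control cells and 8345 and 7197 bp in ATRA, and the log2 ratio was -0.03. Part of this belongs to HDAC6, whose TSS lies in the window and whose peak was present in all 4 libraries. At the GATA1 TSS, H3K27ac covered 818 and 0 bp in control cells and 369 and 0 bp in ATRA, so replicates of 1 condition disagreed. H3K4me3 at the TSS covered 1015 and 1023 bp in control cells and 808 and 0 bp in ATRA. Peaks touched the TSS base itself in both control and in neither ATRA library, so that stricter reading called H3K4me3 lost at GATA1 and GATA2. The share of all genes lost under it was not computed. The GATA1 call rests on peak edges near the TSS at 48644998. Control peaks began at 48644984 and 48644976, and those of the ATRA libraries at 48645191 and 48646278. An H3K27ac element found only in ATRA lay 25.2 to 30.9 kb downstream of the TSS, with 3824 and 3550 bp. After division by covered length, GATA1 was called lower for both marks (log2 ratios -0.83 and -0.37), which the undivided lengths did not show.

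TAL1 and MEIS1 were nearly or wholly bare. TAL1 (hg19 chromosome 1, 47681962 to 47697897, minus strand) had no H3K27ac in 3 libraries and 1597 bp in ATRA replicate 2, split over a peak 10.6 to 9.8 kb upstream and another 20.5 to 21.2 kb downstream of the TSS. Its H3K4me3 was a single 200 bp peak in control replicate 1. MEIS1 (hg19 chromosome 2, 66660584 to 66801001, plus strand), a homeobox factor that acts with HOX proteins in stem cells and leukemia, had no peak of either mark in any of the 8 libraries, nor in the 20 to 100 kb on each side. At these genes a loss could not have been seen, since control cells had next to no peak to lose.

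LYL1, the closest relative of TAL1, was marked in every library (hg19 chromosome 19, 13209847 to 13213975, minus strand). H3K27ac covered 14040 and 13317 bp in control cells and 20698 and 16558 bp in ATRA, so both ATRA libraries were higher, and the log2 ratio was 0.42. The ratio was -0.49 after division by covered length and -2.65 among peaks with a -log10 q of at least 5, so the direction rests on how peaks are counted. The -2.65 came from a single peak in control replicate 1. Under that filter the lengths were 10551, 0, 0 and 0 bp and the groups overlapped. Outside H3K4me3 peaks the ATRA libraries were also higher, with 523 and 94 bp in control cells and 3781 and 1879 bp in ATRA. The H3K4me3 libraries overlapped, with 22933 and 22271 bp in control cells and 22258 and 22582 bp in ATRA. The window also holds the starts of NACC1 and TRMT1. Both marks covered all 2001 bp around the TSS in all 4 libraries. The LYL1 promoter is shown because it kept both marks and carried more GATA motifs than the GATA2 promoters, at chr19:13102809-13103108 on the minus strand of GRCh38.p14, with 2 GATA motifs (read here as their reverse complements) in capitals.
LYL1 promoter: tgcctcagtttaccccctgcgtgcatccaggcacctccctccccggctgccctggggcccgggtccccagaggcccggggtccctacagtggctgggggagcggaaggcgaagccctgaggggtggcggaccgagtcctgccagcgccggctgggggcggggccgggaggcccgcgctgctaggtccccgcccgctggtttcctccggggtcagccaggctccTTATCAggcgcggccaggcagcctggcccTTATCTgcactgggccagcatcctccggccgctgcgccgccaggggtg

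LMO2, the bridging LIM protein of the complex, kept its promoter marks as well (hg19 chromosome 11, 33880122 to 33913623, minus strand). H3K27ac covered 8782 and 23031 bp in control cells and 17035 and 31769 bp in ATRA, and the wide spread between replicates made the groups overlap (log2 ratio 0.59). The H3K4me3 libraries also overlapped, at 13248 and 9947 bp in control cells and 11894 and 11650 bp in ATRA. The 2001 bp around the TSS were covered by both marks in all 4 libraries. Inside the gene, 16.7 to 21.8 kb from the TSS, an H3K27ac element occurred only in ATRA, with 661 and 5122 bp. A short H3K4me3 element 8.0 to 9.1 kb from the TSS occurred only in control cells, with 1028 and 293 bp.

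The ETS gene ERG (hg19 chromosome 21, 39751949 to 40033704, minus strand) had no peak of either mark at any of its 4 groups of start sites. Its H3K27ac covered 1348 and 14923 bp in control cells and 987 and 13585 bp in ATRA. All of it lay in the gene body except in control replicate 2, where 14323 bp did. Replicates of 1 condition differed more than the conditions (log2 ratio -0.14, but 1.82 without control replicate 2 and -2.20 without ATRA replicate 2). One ERG element, 22.0 to 24.3 kb downstream of the canonical TSS, was present only in control cells, with 1348 and 2278 bp, and it was the only such H3K27ac element in the 10 windows. Beyond the window, H3K27ac between 20 and 100 kb upstream covered 0 and 2827 bp in control cells and 12625 and 15824 bp in ATRA, the reverse of the stretch upstream of GATA2. H3K4me3 over ERG was limited to 375 bp in control replicate 1 and 966 bp in ATRA replicate 1.

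FLI1 (hg19 chromosome 11, 128556430 to 128683162, plus strand) was acetylated in every library. H3K27ac covered 12739 and 24541 bp in control cells and 27497 and 36219 bp in ATRA, a log2 ratio of 0.74 with no overlap. After division by covered length the ratio was -0.08 and FLI1 was called lower. The element inside the gene 17.6 to 29.4 kb from the TSS covered 6032 and 6102 bp in control cells and 10025 and 11775 bp in ATRA, and the one at 38.7 to 47.0 kb covered 1279, 4994, 5585 and 8324 bp in the same order. These elements already existed in control cells and were longer in ATRA. H3K4me3 covered 11225 and 4746 bp in control cells and 12472 and 7302 bp in ATRA, and at the TSS it filled 2001 bp in 3 libraries and 1710 bp in ATRA replicate 2.

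MYB, which maintains proliferating progenitors, had the lowest H3K27ac ratio after GATA2 (hg19 chromosome 6, 135502446 to 135540311, plus strand). H3K27ac covered 11106 and 34131 bp in control cells and 9242 and 25665 bp in ATRA, with a log2 ratio of -0.36, and the groups overlapped because control replicate 1 lay far below ATRA replicate 2. Away from the promoter, an element 27.6 to 32.5 kb inside the gene covered 0 and 4862 bp in control cells and 200 and 2533 bp in ATRA, and H3K27ac outside H3K4me3 peaks covered 2048, 15320, 2248 and 6854 bp. Between 20 and 100 kb downstream the lengths were 6846 and 25476 bp in control cells and 4277 and 12612 bp in ATRA. At the TSS, H3K27ac covered 1680 and 2001 bp in control cells and 1872 and 2001 bp in ATRA, and H3K4me3 covered all 2001 bp in every library. The H3K4me3 domain over the TSS measured 15251 and 13030 bp in control cells and 11264 and 9545 bp in ATRA, which did not overlap, while over the whole window the values 16909, 13030, 14331 and 11362 bp did. The direction of the H3K27ac ratio depended on the libraries used. MYB was called lower without control replicate 1 (-0.93) and without ATRA replicate 2 (-1.21), while the ratio was 0.61 without control replicate 2 and 0.18 without ATRA replicate 1. After division by covered length MYB was called lower for both marks, with ratios of -1.15 for H3K27ac and -0.41 for H3K4me3.

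HHEX, a homeobox factor of early blood and endothelial cells, was not called for either mark (hg19 chromosome 10, 94449712 to 94455404, plus strand). H3K27ac covered 2337 and 3819 bp in control cells and 2199 and 6170 bp in ATRA, a log2 ratio of 0.35 with overlap. H3K4me3 covered 6549 and 6428 bp in control cells and 6440 and 6193 bp in ATRA. At the TSS, H3K27ac covered 964 and 846 bp in control cells and 863 and 724 bp in ATRA, beginning at the start site and running into the gene. A peak was present there in all 4 libraries.

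**Figure D4:**
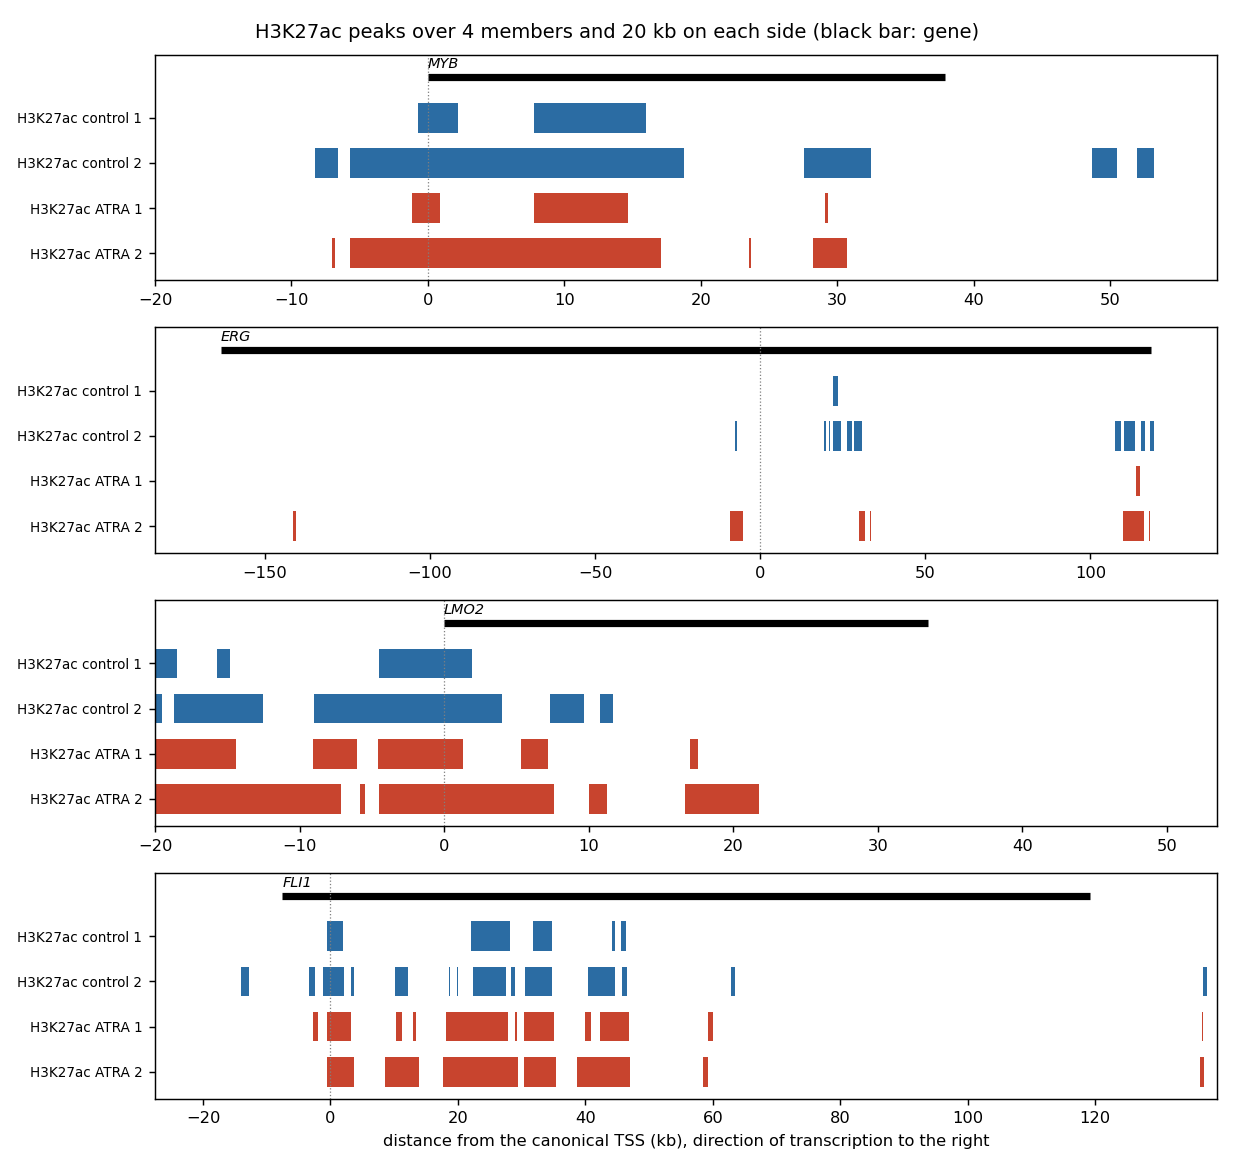
H3K27ac peaks of each library (rows, blue for control and red for ATRA) at MYB, ERG, LMO2 and FLI1 against distance from the canonical TSS in kb (x axis, transcription to the right), with each gene as a black bar. Replicate 2 carries more peaks than replicate 1 at MYB and ERG in both conditions, and the FLI1 peaks inside the gene are longer in ATRA, while the ratio of the FLI1 window turns to -0.08 after division by covered length.

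At the start sites, GATA2 was the only member whose call differed between the conditions. H3K27ac was present within 1 kb of the TSS in all 4 libraries at 5 members (LYL1, LMO2, FLI1, MYB and HHEX) and in none at 3 (TAL1, ERG and MEIS1). H3K4me3 was present in all 4 libraries at 6 members, the same genes and GATA2, and in none at ERG and MEIS1. No member lost or gained H3K4me3 at the TSS by presence of a peak, and over all 11265 genes with such a peak the shares were 0.213% lost and 0.568% gained. The ratio of observed to expected CpG in the 2 kb around the TSS, a property of the sequence alone, ran from 0.20 at LMO2 to 0.87 at HHEX, with a median of 0.64 over all genes. GATA2 was near that median at 0.66. The promoters without H3K27ac had values of 0.34 at ERG, 0.74 at TAL1 and 0.79 at MEIS1.

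**Figure D5:**
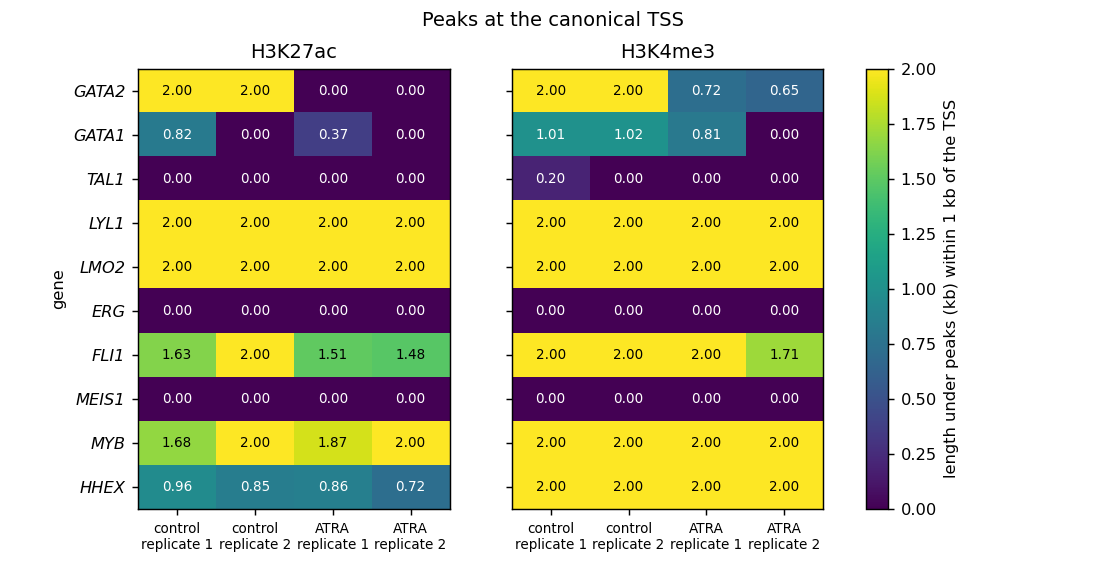
Length under peaks in kb (color and numbers) within 1 kb of the canonical TSS of each gene (rows) in each library (columns), for H3K27ac (left) and H3K4me3 (right). GATA2 is the single row that goes from fully covered to 0.00 in H3K27ac, while its H3K4me3 falls from 2001 to 725 and 653 bp.

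Merging overlapping H3K27ac peaks of the 4 libraries gave 49 elements in the 10 windows. One was found only in control cells and 2 only in ATRA, while 11 were in all 4 libraries and 35 in other combinations. Over the genome, 1.16% of 53146 elements were control only and 8.07% ATRA only. Those in all 4 libraries made up 18.71% over the genome and 22.45% in the windows. The GATA2 element is not among the control-only ones because of the 690 bp peak of ATRA replicate 2. The counts of both classes depended on the libraries used: without control replicate 1 there were 12 control-only elements, and without ATRA replicate 1 there were 12 found only in ATRA. Shares over the genome were not computed with a library left out. The H3K4me3 peaks formed 24 elements, of which 10 (41.67%) were in all 4 libraries, against 57.33% of 19909 over the genome.

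Other genes of the same program were read as counts, beside the 3.86% of all genes lower and 43.7% higher in H3K27ac and the 3.39% and 41.3% in H3K4me3. The shares higher in the 4 lists lay near or below these, and nothing particular to a list is read from them. Of 14 partners of the TAL1, LMO2 and GATA complexes, all with H3K27ac in the window, 1 was lower and 5 were higher in ATRA, with a median log2 ratio of 0.43. The lower gene was RCOR1, a corepressor that works with the demethylase KDM1A, at 11196 and 12970 bp in control cells and 8873 and 7626 bp in ATRA. Of 22 other stem and progenitor factors, 17 had a peak, 2 were lower and 6 were higher, with a median of 0.25. The lower genes were ZBTB16, a zinc finger factor of progenitors (38274 and 54248 bp in control cells, 438 and 1700 bp in ATRA, log2 ratio -4.51), and BCL11A, a repressor of fetal globin (6985, 10358, 1972 and 4719 bp, log2 ratio -1.15). ZBTB16 was also lower in H3K4me3, at 8237 and 6577 bp in control cells and 3127 and 4760 bp in ATRA. Its H3K27ac, unlike that of GATA2, was present at the TSS in only 1 control library, so no loss there was called.

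Of 10 progenitor surface and receptor genes, 9 had H3K27ac, of which 1 was lower and 4 higher, with a median of 0.71. The lower gene was CD9, a tetraspanin, at 5840 and 4828 bp in control cells and 4373 and 2353 bp in ATRA. Of 9 granulocyte factors, 0 were lower and 3 higher, with a median of 0.37. No gene in these 4 lists lost H3K27ac at its TSS. For H3K4me3, the numbers lower and higher were 0 and 5 among the partners, 2 and 2 among the other stem and progenitor factors, 0 and 1 among the surface and receptor genes, and 2 and 4 among the granulocyte factors. Lengths divided by covered length were computed for the members and not for these lists. They moved the median of the members in H3K27ac from 0.35 to -0.49.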

How the data were processed

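HL-60 cells treated with ATRA or ethanol were profiled by ChIP-seq for H3K4me3 and H3K27ac. The authors removed adapters (cutadapt in the submitters' processing notes), mapped them to hg19 using Bowtie, and ran MACS2 in broad mode on every library by itself. Input libraries were made from fragmented genomic DNA. Tool versions and whether the input entered the peak call are not given in the sources used here. The authors deposited peak coordinates with 3 measures, of which fold enrichment and -log10 p held values these measures cannot take and were not used. The deposited -log10 q, per peak, served only as a filter, with 5 as the stricter setting. The depth is unknown, so no counting error could be given.

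Genes and start sites came from GENCODE release 44 on GRCh37. The canonical transcript gave the TSS. Start sites of a gene that lay within 1 kb of the next one formed a group, which was read with 1 kb on each side. Peaks were merged at an overlap of at least 1 bp. Distance to GATA2 was Euclidean over the 8 values of log2(bp + 1000), and genes whose window overlaps that of GATA2 were left out. Samples were grouped by their titles. The genes named were the 10 members, listed genes called lower in H3K27ac or losing it at the TSS, the 5 genes nearest to GATA2, and genes starting inside a member's window. Genes named after their values were seen are marked as such, and 1 gene is not reported here. The members and lists were chosen with earlier results of these data known. Alternatives covered the window, the TSS definition, the -log10 q threshold, scaling by covered length, equal peak numbers, peak number in place of length, the pseudocount, the replicate block and leaving out each library. Python 3.11.15, numpy 2.4.6 and matplotlib 3.10.9 were used, and covered lengths and peak counts were tested on simulated peaks. The lower call was run on H3K27ac windows whose ATRA peaks had been deleted, where it could not fail.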

Additional observations from a re-analysis of the deposited data

How the results depend on the processing

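Members lower in H3K27ac numbered 1 and became 0 with a -log10 q of at least 5 or with the number of peaks, 4 with lengths divided by the covered length of the library, and 2 with equal peak numbers; those higher numbered 2 and became 1 over the gene body or with the -log10 q threshold, 4 with 100 kb on each side, and 0 with covered length or number of peaks. Members lower in H3K4me3 numbered 1 and became 3 over the gene body and 6 with covered length. They became 2 with equal peak numbers and 0 with the number of peaks, and those higher went from 0 to 2 with 100 kb. Over all genes, H3K27ac was lower at 4.663% with the -log10 q threshold, 25.06% with covered length and 7.993% with equal peak numbers. It was higher at 36.53% over the gene body, 9.597% with the threshold, 50.58% with 100 kb and 18.36% with covered length. H3K4me3 was lower at 5.471% over the gene body, 25.39% with covered length and 3.977% with equal peak numbers. It was higher at 45.01% with 100 kb. No such share was computed for the number of peaks. H3K27ac lost at the TSS went from 1 to 0 with 5 kb on each side or the -log10 q threshold, and H3K4me3 lost from 0 to 1 with any TSS and 2 with a peak over the TSS base. Control-only and ATRA-only elements went from 1 and 2 to 0 and 1 with that threshold. No shares over all genes or all elements were computed for these TSS and element settings.

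Among members called in the comparison, ratios that turned sign were those of LYL1 (-2.65 with the -log10 q threshold, -0.49 with covered length) and FLI1 (-0.08 with covered length, -0.07 with the number of peaks) for H3K27ac, and of GATA2 for H3K4me3 (0.26 with the number of peaks). The LYL1 value under the threshold rests on a single peak in control replicate 1. Uncalled H3K27ac ratios turned too: with 100 kb those of ERG (1.41) and GATA1 (0.52), over the gene body that of HHEX (-0.05), with covered length those of LMO2 (-0.20) and HHEX (-0.41), without control replicate 2 those of ERG (1.82), MYB (0.61) and GATA1 (0.17), without ATRA replicate 1 those of ERG (0.67) and MYB (0.18), and without ATRA replicate 2 those of HHEX (-0.35) and GATA1 (0.06). Uncalled H3K4me3 ratios that turned lay between -0.25 and 0.22. Leaving out 1 library gave 1 to 4 members lower and 2 to 5 higher in H3K27ac, 1 to 7 lower and 0 to 2 higher in H3K4me3, 0 to 1 that lost H3K4me3 at the TSS, 2 to 12 control-only and 3 to 12 ATRA-only elements. GATA2 stayed among the lower members for both marks, which the definition of the call makes certain when a library is left out. H3K27ac rose to 4 lower members without control replicate 1 (GATA2, GATA1, ERG, MYB) and without ATRA replicate 2 (GATA2, ERG, MYB, HHEX), and H3K4me3 to 7 without control replicate 2. With fewer libraries to compare, the counts of lower and higher members can only stay or rise. Shares over all genes were not computed for these settings, and any further cause was not tested.

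The labels do not say that replicate numbers pair the libraries. Over 75824 and 75806 bins of 40 kb, libraries sharing a number deviated from their condition means with a Pearson correlation of 0.56 for H3K27ac and 0.22 for H3K4me3. With the replicate block, comparing libraries of the same number, 3 members were lower (GATA2, ERG, MYB) and 3 higher (LYL1, LMO2, FLI1) in H3K27ac, and 4 were lower (GATA2, GATA1, MYB, HHEX) and 1 higher (FLI1) in H3K4me3, so that MYB was lower in both marks beside GATA2. Over all genes the block gave 7.915% lower and 62.63% higher in H3K27ac, and 6.209% and 55.35% in H3K4me3. The share lower in both marks under the block was not computed. Over all results and alternatives, 67 values of main results stayed and 41 moved. The unknown depth and 2 libraries per condition limit every call.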

Other observations

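Among the listed genes, chosen here after their values were seen, MECOM, a stem cell zinc finger factor, had no H3K27ac in either control library and 14296 and 24673 bp in the ATRA libraries. KIT, the stem cell factor receptor, covered 0 and 2249 bp in control cells and 9782 and 21259 bp in ATRA. Over the window both lay opposite to GATA2, in the direction called at 43.7% of all genes. No library had a peak of either mark at the MECOM TSS. At the KIT TSS, H3K27ac was found only in ATRA replicate 1, over 213 bp, and its H3K4me3 libraries overlapped over the window.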
